A study of Mus musculus with 3 samples.

Results

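These data describe transcripts of 9 genes of the cortical thymic epithelium, *Psmb11*, *Prss16*, *Ccl25*, *Ly75*, *Foxn1*, *Ctsl*, *Tbata*, *Krt8* and *Cxcl12*, in spatial transcriptomes of mouse thymus. The 9 genes were chosen by name, with earlier results of these data known, and are 9 of 54838 genes listed for each section. The 3 sections came from 3 female C57BL/6 mice. By their labels, KO1134 was *Trp53*-/- and 17 weeks old, KO1308 was *Trp53*-/- and 21 weeks old, and WT1101 was *Trp53*+/+ and 17 weeks old, while a table of the study's supplement gives WT1101 a greater age than its label does. *Trp53* encodes p53, and in the KO mice it was missing from every cell of the body, so the epithelium and the thymocytes lacked it together. After perfusion with saline, 1 frozen section per mouse was laid on a BMKMANU S1000 chip, a grid of barcoded spots with a spacing of 4.8 µm, and transcripts were counted by molecular tags, or UMIs. The comparison asks how the cortical epithelial genes stood in the KO thymus beside WT. With 1 WT section no test between genotypes was possible, and genotype cannot be told apart from the section, from the permeabilisation time, which differed between KO and WT tissue, or, for KO1308 as labelled, from age.

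The thymus has an outer cortex, where immature T cells (thymocytes) rearrange their receptor genes and are positively selected, and an inner medulla, where self-reactive cells are removed. Cortical epithelial cells form the scaffold of the cortex, attract progenitors with chemokines and display peptides made by proteases that few other cells use. The transcription factor *Foxn1* is required for this epithelium to form and to keep its function.

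The spots were pooled into squares of 27 µm, called bins. A bin counted as tissue if it had 300 genes or more, no more than 30% of UMIs from mitochondrial genes and a place in a connected group of 200 bins or more, which left 12009 bins with a mean of 2591 UMIs in KO1134, 16140 bins with a mean of 1090 in KO1308 and 27104 bins with a mean of 1497 in WT, so a bin was deepest in KO1134. The thymus area was the part of the tissue in which a window of 7 × 7 bins reached 50% or more of the section's own share of 4 thymocyte genes (*Themis*, *Arpp21*, *Ptcra* and *Cd8b1*), none of them a member. It held 10192, 10961 and 24537 bins in KO1134, KO1308 and WT. Levels are a gene's UMIs per 1000000 UMIs (CPM), summed over the bins of an area, with exact 95% Poisson intervals in brackets. Ratios have exact 95% conditional binomial intervals, and all intervals cover counting error only. *Trp53*, the check of the labels, was, in the thymus area without the B cell-rich group described next, at 14.9 CPM in KO1134, 23.2 in KO1308 and 80.1 in WT, lower in each library labelled KO. A table of the study's supplement lists KO1308 but not KO1134, with a depth near that of the data labelled KO1134, so the KO sections are named here by their labels only. Spots of different sections shared between 5486 and 13503 barcode sequences per pair, out of at least 333977 in a section.

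The KO sections held tissue that stood apart from the rest. In KO1134, 2087 bins (17.4% of the tissue) formed 1 connected group rich in the B cell genes *Cd79a*, *Cd79b* and *Ms4a1* (763 CPM summed, against 84.5 in the rest of the thymus area), and 1857 of them fell in the thymus area. A group of 897 such bins in KO1308 overlapped the thymus area in 1 bin, and WT had no such group. KO1308 also had a separate piece of 536 bins with adipocyte genes at 22130 CPM and no bin of thymus area. Within the thymus area 8 genes of cortical thymocytes, among them the 4 that set the area, summed to 647 CPM in KO1134, 2389 in KO1308 and 3748 in WT, and *Rag1*, which cuts receptor genes in cortical thymocytes, was at 32.9, 407 and 678 CPM. None of the thymocyte genes was at 0 in any section. Levels are therefore given with and without the B cell-rich group, a choice made after the data were seen. Without it the thymus area was set anew and held 8613, 10339 and 24537 bins. The maps show the summed level of the members over each section.

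**Figure D1:**
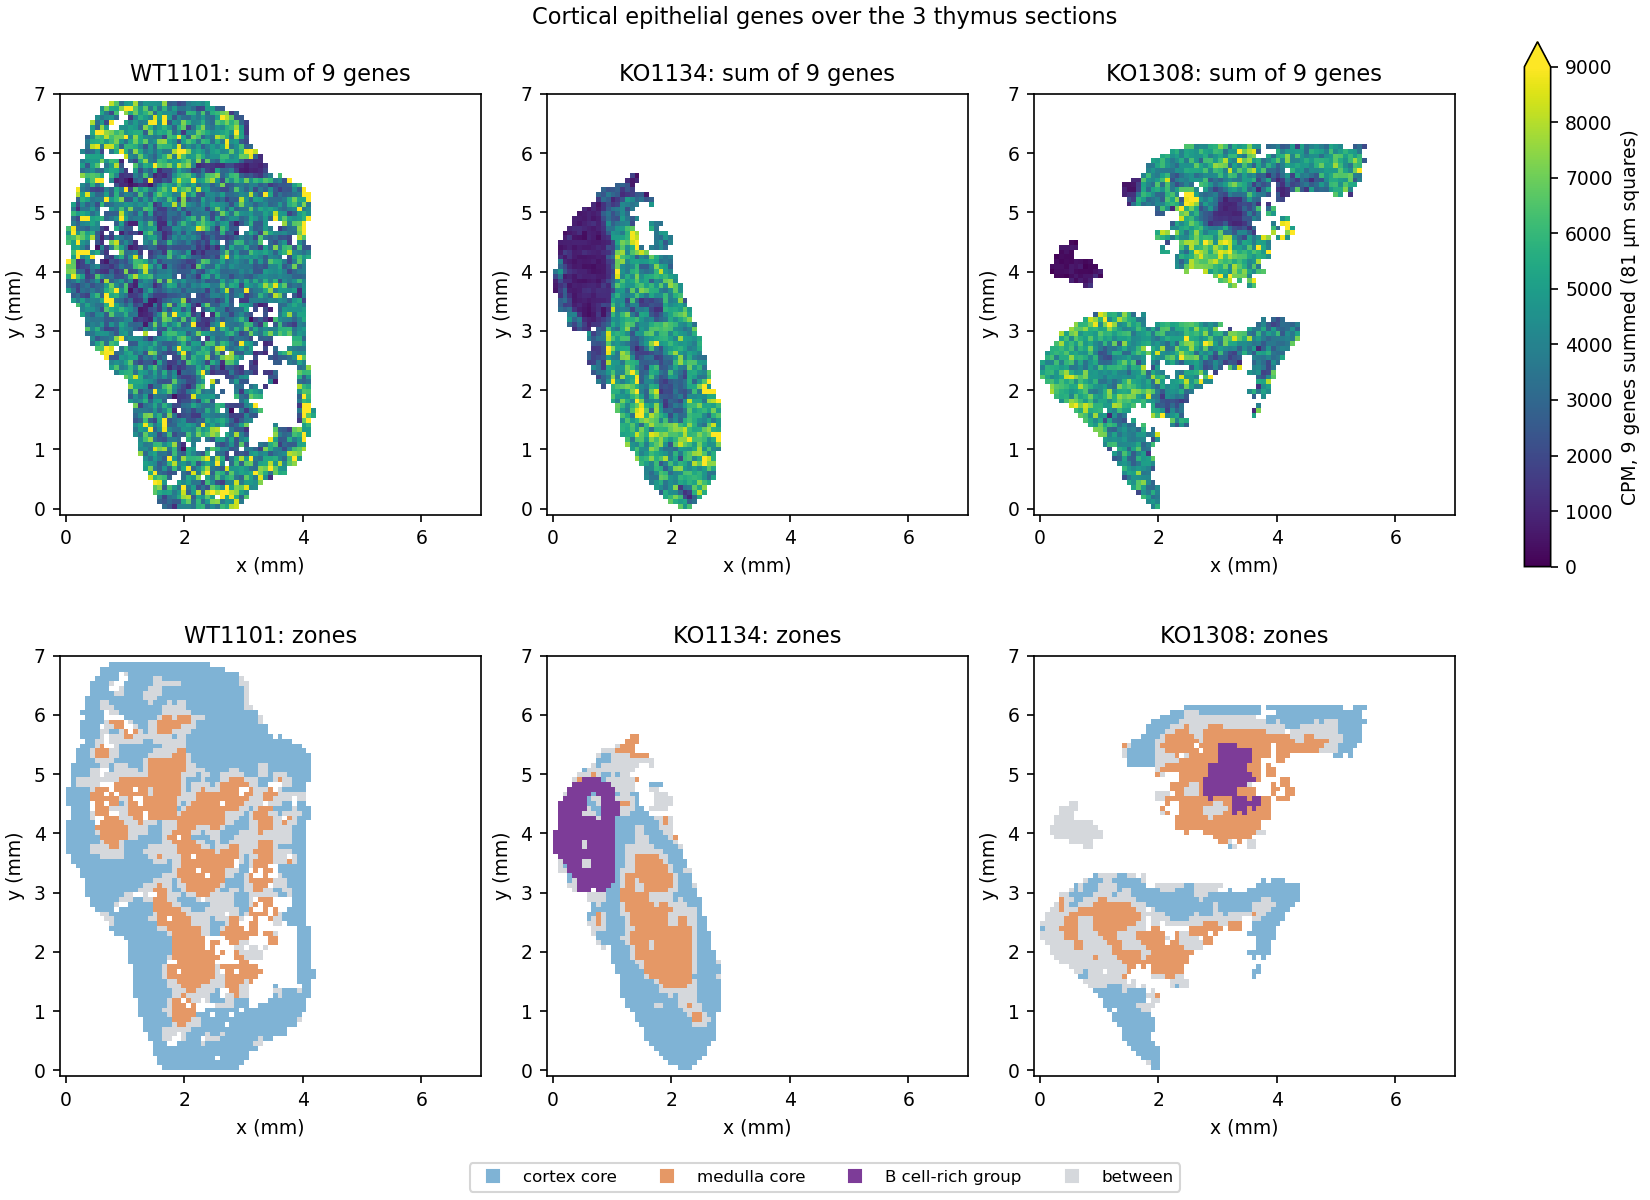
Maps of the 3 sections in squares of 3 × 3 bins, with position in mm on both axes. The upper row gives the summed CPM of the 9 members in colour and the lower row gives the cortex core, the medulla core and the B cell-rich group. Member transcripts filled the thymus area of each section and were low in the B cell-rich group of KO1134 (1209 CPM, against 5009 in the rest of its thymus area) and in the separate piece of KO1308 (376 CPM).

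The promoters of the members are shown because *Foxn1* is itself a member and several of its known targets are members too, so the letters it is known to prefer, GACGC, can be looked for beside the shared spatial pattern. RefSeq windows of 300 bases on GRCm38.p6, from 250 bases before to 50 after a transcript start, were held for 8 of the 9 members, with a pair of starts for *Ccl25*. Searched on both strands (GACGC or GCGTC), the letters were in 3 of the 9 windows, those of *Psmb11*, *Ccl25* and *Cxcl12*, and in 27.2% of all 32851 promoter windows. The share among members is close to that background, and a match is not a binding site. The 3 windows run 5′ to 3′ along the strand of the gene, with the matching letters in capitals. *Psmb11* has matches that begin at base 12 and base 189 of chr14:54625060-54625359 (+), *Ccl25* at base 195 and base 263 of chr8:4324960-4325259 (+), and *Cxcl12* at base 189 of chr6:117168285-117168584 (+).
Psmb11: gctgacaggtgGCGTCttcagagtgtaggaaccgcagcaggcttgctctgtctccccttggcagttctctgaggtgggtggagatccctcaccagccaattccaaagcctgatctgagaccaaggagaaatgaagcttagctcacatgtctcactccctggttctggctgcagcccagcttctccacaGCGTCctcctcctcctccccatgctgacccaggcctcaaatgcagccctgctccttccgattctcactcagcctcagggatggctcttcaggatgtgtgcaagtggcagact
Ccl25: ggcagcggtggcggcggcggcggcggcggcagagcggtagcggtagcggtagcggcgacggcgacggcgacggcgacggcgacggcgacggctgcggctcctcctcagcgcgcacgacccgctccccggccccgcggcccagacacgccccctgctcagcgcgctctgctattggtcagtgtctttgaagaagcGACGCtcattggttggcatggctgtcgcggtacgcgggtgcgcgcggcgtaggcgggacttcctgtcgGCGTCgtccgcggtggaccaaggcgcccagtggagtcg
Cxcl12: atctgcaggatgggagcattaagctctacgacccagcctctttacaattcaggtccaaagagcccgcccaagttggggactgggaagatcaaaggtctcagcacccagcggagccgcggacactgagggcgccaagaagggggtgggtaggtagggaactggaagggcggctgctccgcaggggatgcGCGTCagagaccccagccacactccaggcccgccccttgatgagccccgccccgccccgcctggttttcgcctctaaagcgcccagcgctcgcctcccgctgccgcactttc
The windows of *Ly75*, *Foxn1*, *Ctsl*, *Tbata* and *Krt8*, and the second window of *Ccl25*, did not contain these letters.

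*Foxn1* (GRCm38, as for all positions here, chr11:78357577-78386558, minus strand) had the widest gap between KO and WT among the 9 members. It was at 14.7 CPM [13.3, 16.2] in KO1134, 28.5 [25.5, 31.8] in KO1308 and 8.76 [7.85, 9.75] in WT, from 408, 320 and 335 UMIs. Both KO sections lay above WT and their intervals did not overlap. The ratio to WT was 1.67 [1.44, 1.94] in KO1134 and 3.25 [2.78, 3.8] in KO1308, and KO1308 exceeded KO1134 by 1.94 times [1.67, 2.26]. The mean of both KO sections was 21.6 ± 9.78 CPM (SD, n = 2). Leaving out the B cell-rich group gave ratios of 2.08 and 3.2. As in any measurement of summed tissue, more epithelial cells and more RNA per epithelial cell cannot be told apart, and CPM is a share, so it also moves with the RNA of the other cells. The thymocyte genes stood at 0.173 and 0.637 times WT beside this result, and their part in it was not tested.

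*Psmb11*, *Prss16* and *Ctsl* encode the proteases that set which self-peptides the cortex displays. *Psmb11* (chr14:54621433-54629556, plus strand) encodes β5t, the catalytic subunit of the thymoproteasome, which makes peptides for class I molecules. It was at 128 CPM [124, 133] in KO1134, 153 [146, 161] in KO1308 and 117 [114, 121] in WT, a narrow spread with WT lowest. The ratios to WT were 1.09 [1.05, 1.14] and 1.31 [1.24, 1.38], and without the B cell-rich group they came to 1.32 and 1.31, and both KO sections then had nearly the same level (155 ± 0.504 CPM, SD, n = 2). *Prss16* (chr13:22002173-22009742, minus strand), the thymus-specific serine protease of the class II pathway, differed more between the KO mice than between KO1134 and WT. It was at 351 CPM [344, 358] in KO1134, 620 [605, 634] in KO1308 and 347 [341, 353] in WT, that is 1.01 [0.987, 1.04] and 1.79 [1.74, 1.84] times WT. Outside the B cell-rich group KO1134 stood at 423 CPM, or 1.22 [1.19, 1.25] times WT. *Ctsl* (chr13:64359337-64370890, minus strand), the lysosomal protease that trims the invariant chain in cortical epithelium and is also used by macrophages and many other cells, was at 1851 CPM in KO1134, 2247 in KO1308 and 2086 in WT. Its ratios of 0.887 [0.878, 0.897] and 1.08 [1.06, 1.09] lay on either side of 1, and without the B cell-rich group both were just above it, at 1.05 and 1.07.

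*Ly75* (chr2:60292103-60383303, minus strand) encodes DEC-205, an endocytic receptor on cortical epithelium and on dendritic cells. It was at 306 CPM [300, 313] in KO1134, 411 [399, 423] in KO1308 and 339 [333, 345] in WT. The KO sections stood on either side of WT, with ratios of 0.903 [0.879, 0.928] and 1.21 [1.17, 1.25]. The ratio of KO1134 was 1.03 [1.0, 1.06] without the B cell-rich group.

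The chemokines went in different directions. *Ccl25* (chr8:4325210-4360020, plus strand), which draws progenitors and early thymocytes through *Ccr9*, was at 542 CPM [533, 551] in KO1134, 597 [583, 611] in KO1308 and 687 [679, 695] in WT, lower in both KO sections. The ratios were 0.789 [0.773, 0.805] and 0.869 [0.846, 0.892], and 0.95 [0.931, 0.97] and 0.871 [0.848, 0.896] without the B cell-rich group, so KO1134 then lay closer to WT than KO1308 did. *Cxcl12* (chr6:117168535-117181367, plus strand), the ligand of *Cxcr4* made by cortical epithelium and also by fibroblasts, endothelium and lymph node stroma, was at 224 CPM [218, 229] in KO1134, 193 [185, 202] in KO1308 and 144 [140, 148] in WT. Both KO sections were above WT, with ratios of 1.55 [1.5, 1.61] and 1.34 [1.28, 1.41], and 1.51 and 1.35 without the B cell-rich group. Fibroblast genes, 6 in all, stood higher beside it: their sum was 346 CPM in KO1134, 267 in KO1308 and 113 in WT, no gene of the list was at 0, and their part in the *Cxcl12* level was not tested.

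*Krt8* and *Tbata* complete the set. *Krt8* (chr15:101996698-102004482, minus strand), a keratin of the filaments of simple epithelia, cortical cells among them, was at 211 CPM [205, 216] in KO1134, 269 [259, 279] in KO1308 and 173 [169, 177] in WT. It was higher in both KO sections, 1.22 [1.18, 1.26] and 1.56 [1.49, 1.63] times WT, and 1.48 and 1.54 times without the B cell-rich group. *Tbata* (chr10:61171954-61188841, plus strand), a gene expressed in thymic epithelium and testis, was at 621 CPM [612, 630] in KO1134, 624 [610, 639] in KO1308 and 710 [702, 718] in WT. Both KO sections were lower at nearly the same ratio, 0.875 and 0.879. They parted once the B cell-rich group was left out, with 1.06 [1.04, 1.08] in KO1134 and 0.878 [0.855, 0.902] in KO1308.

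**Figure D2:**
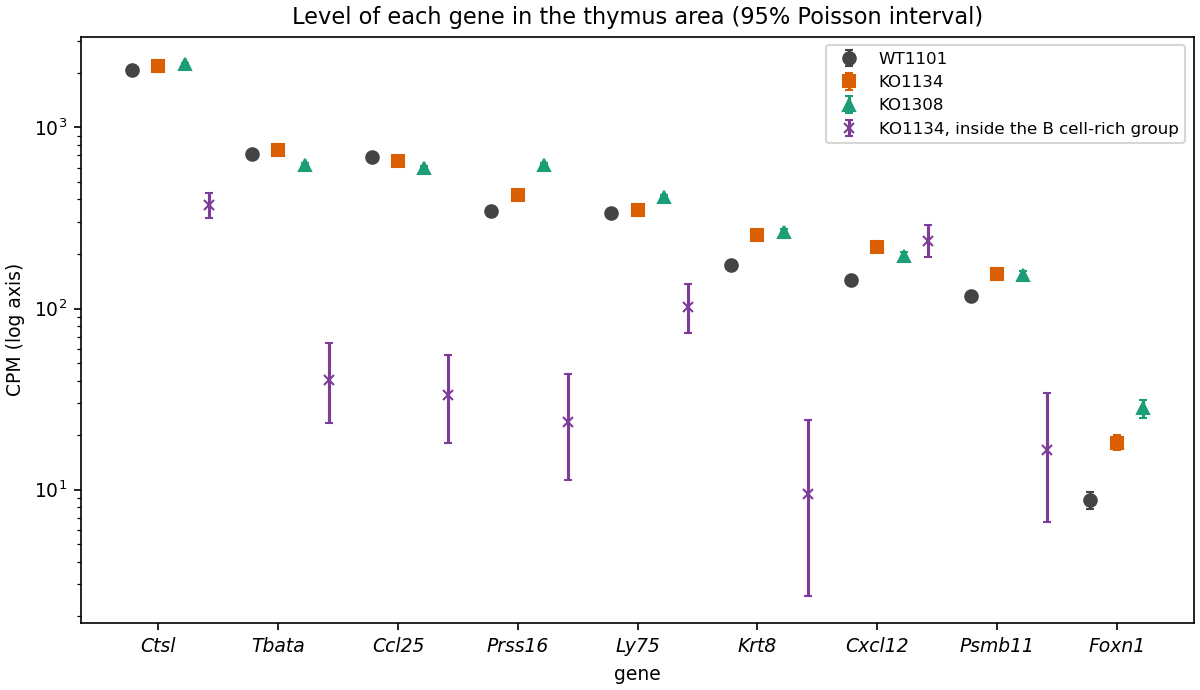
Levels of the 9 members in CPM (log axis) in each section for the thymus area without the B cell-rich group, and in KO1134 for the inside of that group, more than 200 µm from other tissue, with 95% Poisson intervals as bars. All members except *Ccl25* and *Tbata* were lowest in WT, and every member except *Cxcl12* was lower inside the B cell-rich group of KO1134 than in the rest of its thymus area (for *Psmb11*, 16.5 CPM against 155). *Foxn1* had 0 UMIs inside that group and has no point there.

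Across the members, 1 of 9 (*Foxn1*) reached 1.5 times WT in both KO sections, whereas 20.2% of all 18632 genes with at least 50 UMIs did so. No member fell to 1/1.5 of WT in both, and 5.47% of all genes did. In KO1134 alone 2 members (*Foxn1* and *Cxcl12*) reached 1.5 times WT, against 27.1% of all genes, and in KO1308 alone 3 did (*Foxn1*, *Prss16* and *Krt8*), against 30.5%. Above 1 in both KO sections were 5 members, against 43.2% of all genes, and below 1 in both were 2 (*Ccl25* and *Tbata*), against 28.1%. The shares of members past 1.5 times were close to or below those of all genes. The median ratio of the members was 1.01 in KO1134 and 1.31 in KO1308 (mean 1.16 ± 0.209, SD, n = 2), beside medians of 1.02 and 1.14 over all genes tested. With the B cell-rich group left out the members' medians were 1.22 and 1.31, beside 1.05 and 1.14 over all genes, 7 members were above 1 in both KO sections (44.3% of all genes) and 1, *Ccl25*, was below 1 in both (27.3%). In the cortex core alone, described further on, the ratios were 2.09 and 3.39 for *Foxn1*, 1.49 and 1.23 for *Psmb11*, 1.37 and 1.69 for *Prss16*, 1.42 and 1.42 for *Krt8*, and 1.01 and 0.805 for *Ccl25*. Summed over the thymus area, the members took 4249 CPM in KO1134, 5143 in KO1308 and 4612 in WT. Both ratios of a gene share the same WT section as their denominator. The plot of ratios sets the members beside other gene groups of the thymus.

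**Figure D3:**
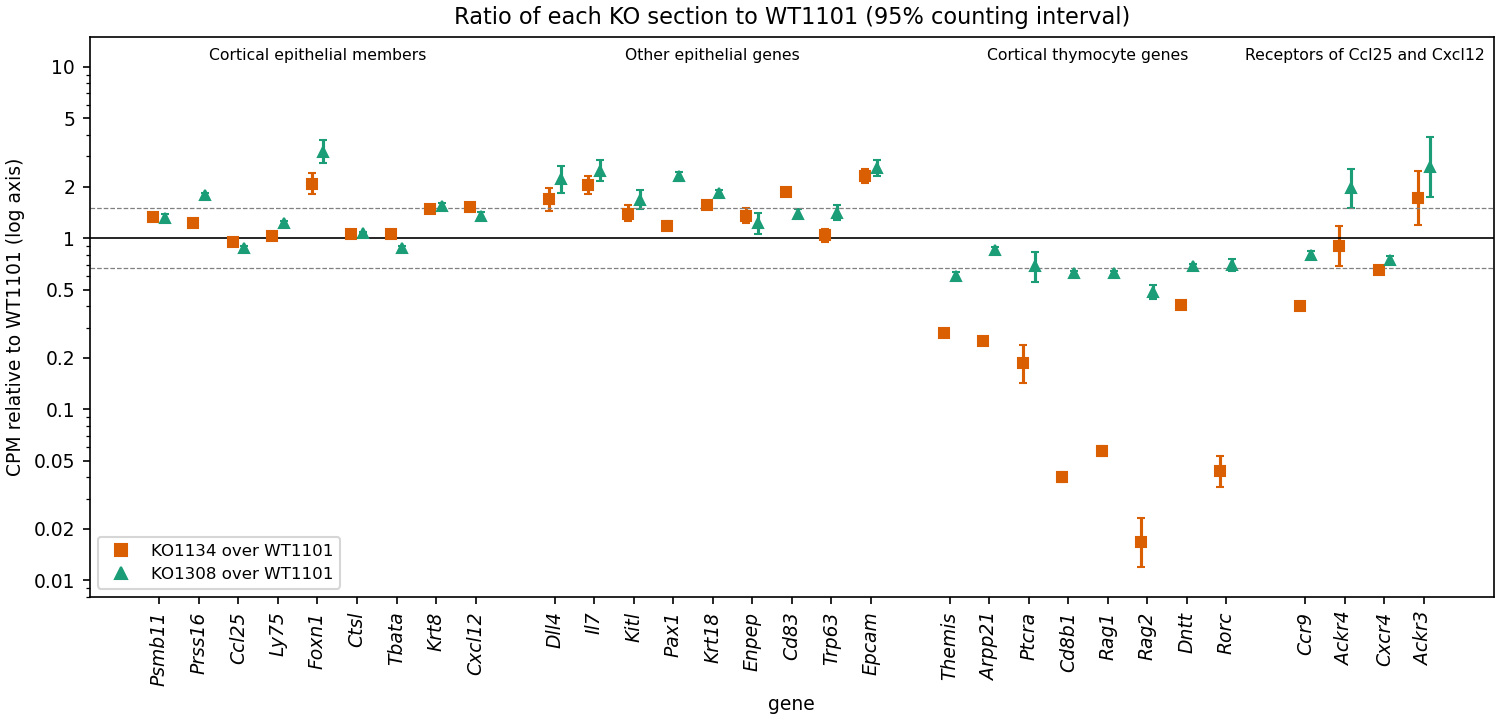
Ratio of each KO section to WT (log axis) for the members, other epithelial genes, cortical thymocyte genes and the receptors of *Ccl25* and *Cxcl12*, in the thymus area without the B cell-rich group. Bars are 95% counting intervals and dashed lines mark 1.5 times and 1/1.5 of WT. The members lay between 0.871 and 3.2, whereas the thymocyte genes were all below 1, down to 0.0168 (*Rag2* in KO1134).

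Set against thymocyte transcripts, member transcripts were more frequent in the KO sections. For every 100 UMIs of the 8 thymocyte genes, the 9 members together gave 123 UMIs in WT, 215 in KO1308 and 657 in KO1134, which is 1.75 and 5.34 times WT. The same count for *Foxn1* alone was 0.234, 1.19 and 2.26, and for *Psmb11* it was 3.13, 6.42 and 19.8. Over the members these ratios to WT ran from 1.36 for *Ccl25* in KO1308 to 9.69 for *Foxn1* in KO1134. Any gene above 0.173 times WT in KO1134, or 0.637 times in KO1308, gives a ratio above 1 on this scale, so a value above 1 is not particular to the members. In the cortex core the members gave 119, 157 and 593 UMIs per 100, which is 1.31 times WT in KO1308 and 4.97 times in KO1134. Over the thymus area, all 8 thymocyte genes were at or under 1/1.5 of WT in KO1134 and 6 of 8 were in KO1308, against 18.9% and 10.5% of all genes. In KO1308 the number was 4 of 8 without the B cell-rich group and 1 of 8 in the cortex core. In KO1134 it was 8 of 8 in both of these areas, for which the share of all genes is not given.

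Other epithelial genes, listed as cortical or as shared by the epithelium, stood higher over the thymus area of the KO sections than the members did. The 9 genes of this list include the Notch ligand *Dll4*, the cytokines *Il7* and *Kitl*, the transcription factors *Pax1* and *Trp63*, and the surface protein *Epcam*. By position not all were cortical. In the cortex zone, described further on, *Epcam* was at 0.295, 0.402 and 0.577 times its medulla zone level in KO1134, KO1308 and WT. *Il7* was at 0.47, 0.498 and 0.586 times, and *Dll4* was near even at 0.942, 1.14 and 1.02. Outside the B cell-rich group all 9 exceeded WT in both KO mice (44.3% of all genes did), and 4 reached 1.5 times WT in both, against 21.0% of all genes. Their median ratios were 1.55 in KO1134 and 1.83 in KO1308. In the cortex core, described further on, they were 1.36 and 1.71, beside 1.37 and 1.23 for the members. The list thus stood no higher than the members in the cortex core of KO1134. *Dll4*, which commits progenitors to the T lineage, was at 13.7, 18.0 and 8.16 CPM in KO1134, KO1308 and WT. *Il7*, a survival factor of early thymocytes, was at 26.0, 31.5 and 12.7 CPM. *Krt18*, the filament partner of *Krt8*, was at 365, 432 and 236 CPM, so both keratins stood above WT. *Pax1*, a pharyngeal pouch factor, was at 92.6, 179 and 78.1 CPM and differed more between the KO mice than between KO1134 and WT. *Enpep* and *Trp63* moved least, with ratios between 1.04 and 1.41. With that group inside the area, 7 of the 9 were above WT in both and 3 reached 1.5 times. Genes of the medulla stood higher still: 8 of them summed to 673 CPM in KO1134, 558 in KO1308 and 146 in WT, with no gene at 0. Of the 8, 7 were at 1.5 times WT or more in both KO sections, and *Cldn4* was at 0.41 times WT in KO1134 and 1.93 times in KO1308. *Krt5* was at 125, 259 and 42.8 CPM and *Aire* at 20.8, 31.3 and 5.7. These genes were used to set the medulla zone.

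Receptors and enzymes related to the members were read in the same area. The receptor of *Ccl25*, *Ccr9*, was at 95.1 CPM in KO1134, 190 in KO1308 and 238 in WT, or 0.4 [0.381, 0.419] and 0.8 [0.762, 0.84] times WT, and its scavenging receptor *Ackr4* was at 4.02, 8.73 and 4.47 CPM. The receptor of *Cxcl12*, *Cxcr4*, was at 127, 145 and 195 CPM, lower in both KO sections while its ligand was higher, and the scavenger *Ackr3* was at 2.78, 4.22 and 1.62 CPM. *Ccr9* and *Cxcr4* are borne mostly by thymocytes, whose genes were lower beside them, and their part was not tested. Among other proteasome subunits, *Psmb5*, the standard subunit in the position that *Psmb11* takes, was at 209, 115 and 184 CPM. The immunoproteasome subunits *Psmb8*, *Psmb9* and *Psmb10* were at 167, 183 and 199, at 189, 221 and 143, and at 107, 116 and 71.8 CPM. Thus *Psmb9* and *Psmb10* were above WT in both KO sections, and *Psmb8* was below it in both. Among cathepsins, *Ctsb*, *Ctsd*, *Ctsh* and *Ctss* were above WT in both KO sections, by 1.28 to 4.3 times, while *Ctsl* was within 1.07 times of it. *Ctss*, a protease of macrophages and dendritic cells, was at 704, 263 and 164 CPM. Macrophage genes, 6 in all, stood highest in KO1134 beside it (885, 538 and 419 CPM summed, none at 0), and their part was not tested.

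The position of the members within the tissue was read along an axis set by other genes. A window of 7 × 7 bins was put in the cortex zone where its relative share of the 4 thymocyte genes was at least its relative share of the 8 medulla genes, and otherwise in the medulla zone. With these zones, 1 of 9 members (*Prss16*, 1.63 [1.56, 1.71]) was at least 1.5 times higher in the cortex zone of KO1134, and no member was in KO1308 or WT, where 6.7%, 6.45% and 2.61% of all genes were. At 1/1.5 or less was *Foxn1* in WT only (0.584), against 14.8%, 14.6% and 14.0% of all genes. *Psmb11* was just under that limit in KO1134, at 1.49 [1.38, 1.61]. The thymus area leaves out tissue poor in thymocytes, so these zones hold the medulla in part only. Cores were therefore set, after the data were seen, over all tissue without the B cell-rich group and the separate piece, where 1 relative share was at least 2 times the other. The cortex core held 4614, 4963 and 14428 bins in KO1134, KO1308 and WT, and the medulla core held 2609, 5120 and 6369.

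Between the cores, 5 of 9 members in KO1134, 0 in KO1308 and 3 in WT were at least 1.5 times higher in the cortex, against 15.3%, 14.5% and 8.83% of all genes. At 1/1.5 or less were 0, 0 and 1 (*Foxn1*), against 21.3%, 21.2% and 22.2% of all genes. The median ratio of the members was 1.53, 1.16 and 1.45, beside 1.0, 1.01 and 0.963 over all genes. *Prss16* and *Psmb11* had the steepest gradients. *Prss16* stood at 503 CPM in the cortex core and 215 in the medulla core of KO1134, at 619 and 468 in KO1308 and at 366 and 209 in WT, that is 2.34, 1.32 and 1.75 times higher in the cortex. *Psmb11* stood at 179 and 85.4 CPM, at 148 and 118, and at 120 and 66.7, or 2.1 [1.91, 2.31], 1.26 [1.13, 1.4] and 1.81 [1.63, 2.0] times higher. In both genes KO1308 had the flattest gradient, and its interval did not reach that of WT. *Cxcl12* stood at 239 and 136 CPM in KO1134, at 191 and 153 in KO1308 and at 155 and 88.2 in WT, with ratios of 1.76, 1.25 and 1.75. *Tbata* stood at 825 and 516 CPM, at 618 and 498, and at 726 and 496, with ratios of 1.6, 1.24 and 1.46. *Ccl25* stood at 717 and 467 CPM, at 570 and 490, and at 708 and 488, with ratios of 1.53, 1.16 and 1.45. These 3 genes were likewise flattest in KO1308, with intervals that did not reach those of WT. *Ly75* (1.33, 1.01 and 1.08) differed from level only in KO1134 and, by little, in WT. *Ctsl* (0.985, 0.8 and 1.14) and *Krt8* (0.947, 0.918 and 1.03) had ratios close to 1, with *Ctsl* in KO1308 farthest from it. Between the cores, the name of the set, cortical, thus fits the position of *Psmb11*, *Prss16*, *Cxcl12*, *Tbata* and *Ccl25*, and not that of *Krt8* or *Foxn1*. *Ly75* and *Ctsl* varied between sections. With the first zones the name did not hold for KO1308. There the same genes ran from 0.964 (*Ccl25*) to 1.04 (*Cxcl12*), and no member had an interval above 1.

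*Foxn1* went the other way in all 3 sections. It was at 15.2 CPM in the cortex core and 21.6 in the medulla core of KO1134, at 24.6 and 36.1 in KO1308 and at 7.27 and 15.5 in WT. The ratios were 0.704 [0.562, 0.883], 0.682 [0.541, 0.859] and 0.468 [0.365, 0.604], so the medulla core held more *Foxn1* per UMI in each section, and the intervals of both KO ratios overlapped that of WT. *Foxn1* is known to be active in both epithelial compartments. Among genes that did not set the zones, *Rag1* was 5.11, 4.1 and 1.67 times higher in the cortex core and *Epcam* was at 0.208, 0.321 and 0.285 times its medulla level. An exception lay within the zone genes themselves, since *Cd8b1* in KO1134 was at 32.0 CPM in the cortex core and 47.0 in the medulla core. Adipocyte genes also differed between the cores of KO1308, where *Cfd* was at 785 CPM in the cortex core and 106 in the medulla core, and their part in its flatter gradients was not tested.

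Cut into 5 equal parts from medulla to cortex by the same axis, without the B cell-rich group and the separate piece, *Psmb11* rose most at the first step in each section. In WT it was at 60.3 CPM in the part at the medulla end and at 116, 118, 125 and 119 in the others, so nearly the whole difference lay at the first step. *Prss16* in WT went from 193 CPM through 300 to 369, 368 and 360. In KO1308 *Psmb11* went from 104 CPM through 157, 162 and 160 to 144, a shallower step that fell again at the cortex end. In KO1134 it went from 74.1 CPM through 148 and 133 to 189 and 181, with a second rise between the third and the fourth part. *Cxcl12* followed a like course, from 80.0 CPM through 126 to 152, 158 and 149 in WT, from 118 through 210 to 237, 244 and 235 in KO1134 and from 134 through 190 to 206, 198 and 188 in KO1308. It was above WT in every part of both KO sections. *Foxn1* in WT fell from 15.6 CPM through 11.3 and 8.14 to 7.31 and 7.13. Between the ends, *Krt5* in WT fell from 224 to 7.04 CPM while *Krt8* lay between 167 and 180 in all 5 parts. The plots along the axis show these courses for each member.

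**Figure D4:**
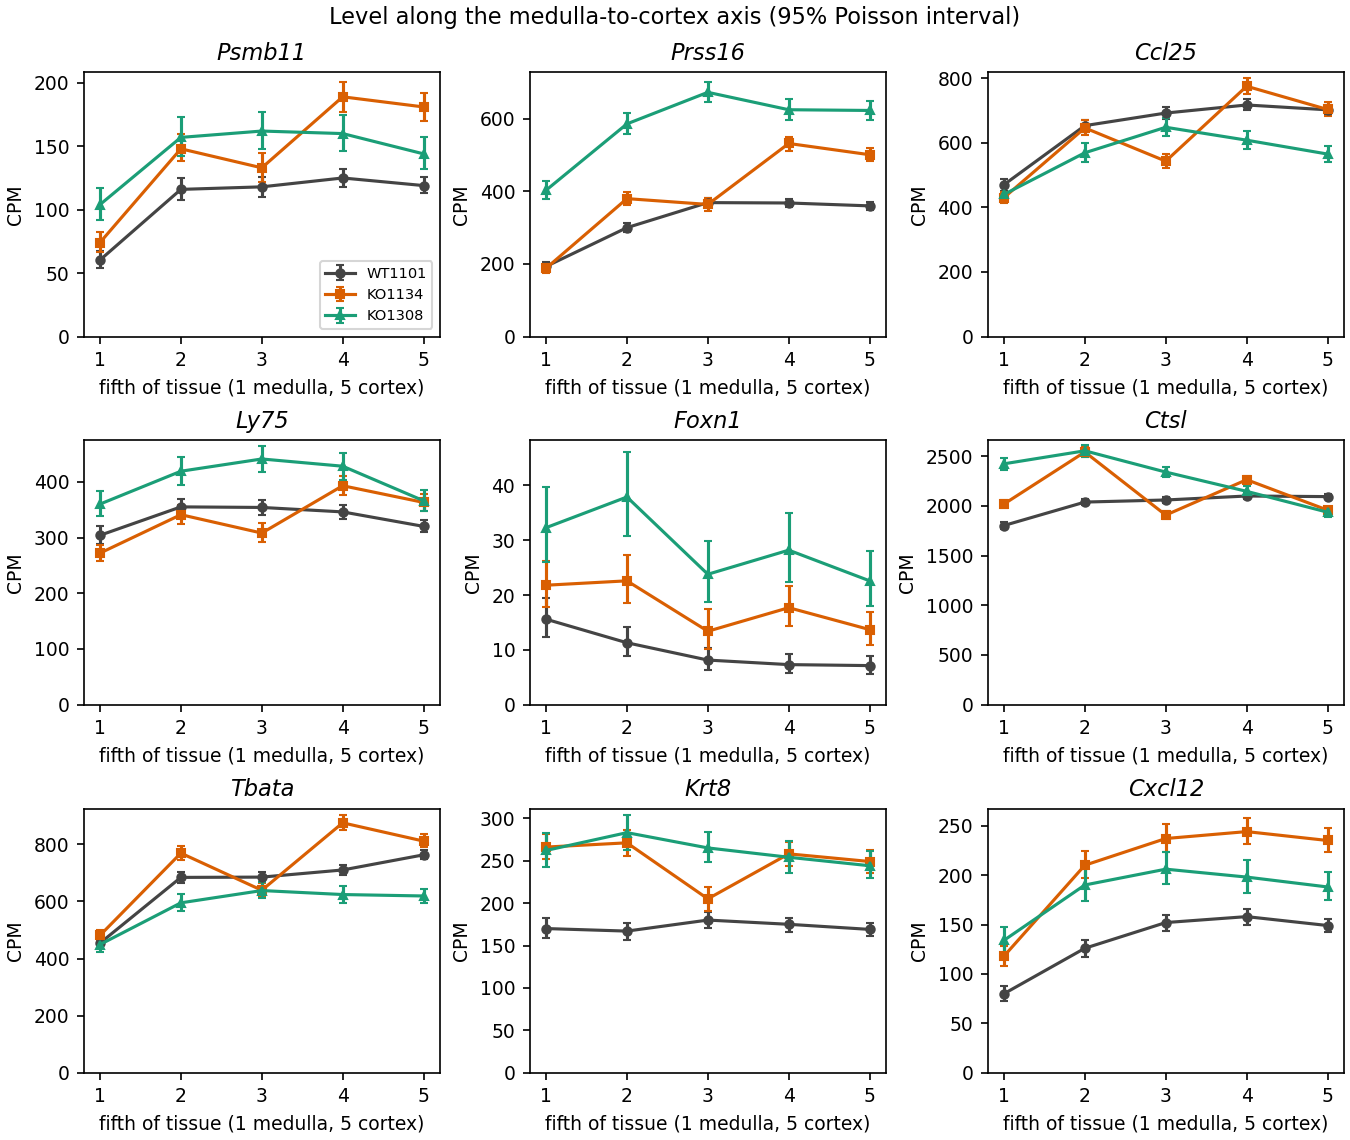
Levels of the 9 members in CPM over 5 equal parts of the tissue, from the medulla end (1) to the cortex end (5), 1 line per section with 95% Poisson intervals as bars. *Psmb11*, *Prss16*, *Ccl25*, *Tbata* and *Cxcl12* rose at the first step in each section (*Psmb11* in WT from 60.3 to 116 CPM), and *Foxn1* was lower at the cortex end than at the medulla end (in WT 7.13 against 15.6 CPM).

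At the outer rim of the tissue the protease *Prss16* was higher in each section, and the chemokine *Cxcl12* in KO1134 and WT. Bins of the cortex zone, set without the B cell-rich group, were used. Those within 100 µm of the tissue edge were set beside those more than 200 µm from it. *Prss16* was at 581 CPM at the rim and 455 inside in KO1134, at 721 and 560 in KO1308 and at 419 and 335 in WT, with ratios of 1.28, 1.29 and 1.25. *Cxcl12* was higher at the rim by 1.23 [1.13, 1.35], 1.13 [0.981, 1.31] and 1.52 [1.41, 1.64] times, the interval of KO1308 reaching 1. *Tbata* went in different directions, with 767 CPM at the rim and 815 inside in KO1134, 578 and 635 in KO1308 and 789 and 683 in WT. The fibroblast genes *Dcn* and *Col3a1* had rim ratios of 1.18, 1.08 [0.879, 1.32] and 3.16, and of 2.01, 2.1 and 3.51, highest in WT in each case, and their part was not tested. *Psmb11* was near even at the rim in KO1134 and WT (1.05 and 0.921) and higher in KO1308 (1.26 [1.07, 1.48]).

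Inside the B cell-rich group of KO1134 most members were nearly absent. In its 131 bins more than 200 µm from other tissue, with a median of 3275 UMIs per bin, *Psmb11* was at 16.5 CPM, *Krt8* at 9.46, *Prss16* at 23.6, *Ccl25* at 33.1 and *Tbata* at 40.2. *Foxn1* had 0 UMIs there, which allows up to 7.09 CPM. In KO1134 members with known expression outside the epithelium kept more: *Cxcl12* was at 236 CPM, above its level in the rest of the thymus area (218), *Ctsl* at 371 and *Ly75* at 102. The matching interior of KO1308 had 70 bins, with 0 UMIs of *Psmb11* (up to 14.6 CPM), and the contrast was less clear. *Ly75* was at 112 CPM (412 in the thymus area without the group), *Cxcl12* at 87.3 (195) and *Krt8* at 63.1 (266). *Ctsl* was at 728 CPM, *Tbata* at 72.8, *Ccl25* at 58.2 and *Prss16* at 34.0. In the separate piece of KO1308, there were 2 UMIs of *Psmb11*, 2 of *Krt8* and 0 of *Foxn1* (up to 3.78 CPM), and 62.3% of its bins had no UMI of any member. In WT bins that failed the filter on genes or mitochondrial UMIs, *Psmb11* was at 92.2 CPM from 85 UMIs, near its level in tissue (112). Such a bin held a mean of 212 UMIs. The position of these bins was not examined, so they may lie within the tissue or beside it.

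The share of bins with a UMI differed widely between members. Again without the B cell-rich group, 28.7% of bins in KO1134, 13.3% in KO1308 and 14.8% in WT had a UMI of *Psmb11*, and 65.8%, 37.8% and 49.7% had one of *Ccl25*. *Foxn1* had a UMI in 4.18%, 2.55% and 1.26% of bins, and *Ctsl* in 92.5%, 77.8% and 79.6%. A bin had a median of 2687, 837 and 1434 UMIs in these sections, so the order of the shares follows depth as well as level and is not read as a difference. In the interior of the B cell-rich group, at a greater depth, 3.82% [1.25, 8.68] of bins had a UMI of *Psmb11*. Only 1.64%, 6.25% and 7.23% of the thymus-area bins had no UMI of any member, and *Ctsl*, which many other cells use, was the member found in most bins. A bin can hold several cells, so these shares count bins near epithelial RNA and not epithelial cells. Across 4 parts of each section by position, the highest level of *Psmb11* was 1.4 times the lowest in KO1134, 1.57 in KO1308 and 1.21 in WT, and the gap between KO1308 and WT (1.31 times) was smaller than the range within KO1308.

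Levels of most members varied together over the tissue, most closely in KO1134. CPM was compared over windows of 7 × 7 bins (189 µm) that do not overlap and hold at least 25 bins of the thymus area, 219 windows in KO1134, 217 in KO1308 and 515 in WT. The median Spearman correlation over the 36 pairs of members was 0.64, 0.23 and 0.35 (mean 0.404, SD 0.209, over the 3 sections). Windows of a section share its library, and a window held a median of 131499, 43075 and 67205 UMIs, the same order as the correlations. Thinned to 20000 UMIs per window, the medians were 0.47, 0.19 and 0.22. They were 0.50, 0.22 and 0.35 with the B cell-rich group left out, so the value of KO1134 rested in part on windows of that group.

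*Ccl25* was in the closest pair of each section. In the area without the B cell-rich group, *Ccl25* and *Tbata* had the strongest correlation in KO1134 (0.79) and in KO1308 (0.52), and *Ccl25* and *Ctsl* in WT (0.68). *Prss16* and *Ccl25* stood at 0.75, 0.44 and 0.62, second in KO1134 and WT and behind *Ccl25* and *Ctsl* (0.49) in KO1308. To see how high a correlation the counts allow, spots of alternate rows were summed apart and each gene was compared with itself. The self-correlation was 0.75, 0.43 and 0.49 for *Prss16*, 0.52, 0.25 and 0.21 for *Psmb11*, and 0.16, -0.07 and 0.01 for *Foxn1*, each from a part of the UMIs. *Foxn1* had a median of 2, 1 and 0 UMIs per window, too few to place it in the tissue at this scale, and its weak correlations with other members say nothing of its pattern. With the thymocyte genes, *Psmb11* had a correlation of 0.58 in KO1134, -0.07 in KO1308 and 0.18 in WT. In KO1134 the other members ran from -0.03 (*Foxn1*), 0.04 (*Krt8*) and 0.07 (*Ctsl*) up to 0.51 (*Prss16*). The lowest value in KO1308 was that of *Ctsl*, -0.34, and in WT that of *Foxn1*, -0.13.

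**Figure D5:**
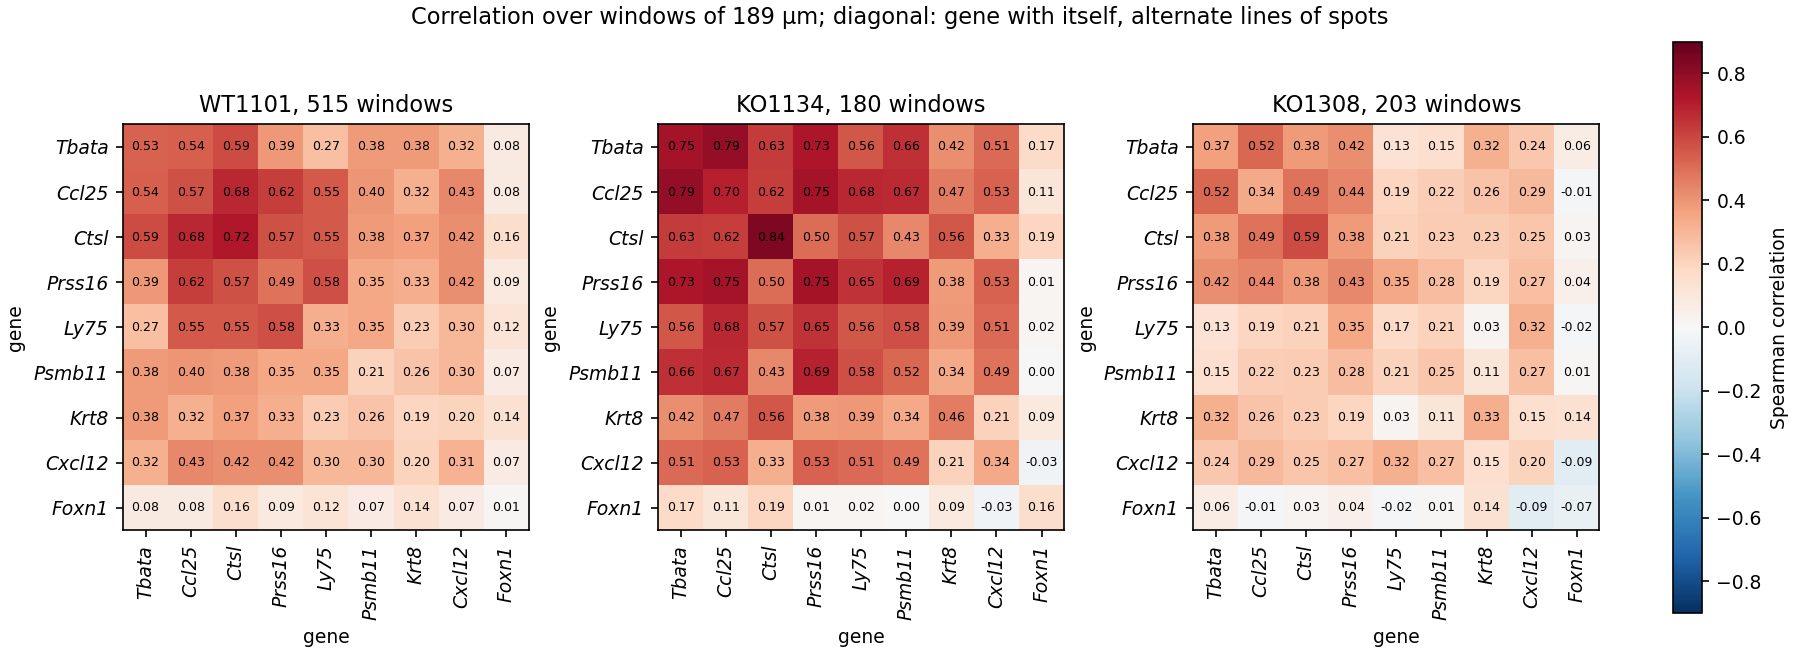
Spearman correlation of CPM between the 9 members over 7 × 7 windows of the thymus area without the B cell-rich group, 1 panel per section, with colour for the correlation and each gene's self-correlation on the diagonal. KO1134 had a median of 0.50 over 180 windows, KO1308 0.22 over 203 and WT 0.35 over 515, and the row of *Foxn1* was near 0 where its UMIs were few.

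The genes most like the members in their pattern were found among 7496 genes with at least 300 UMIs in each thymus area, by the lowest of the 3 correlations with the members' summed level. They were *Cstb* (0.47), *Krt18* (0.45), *Crip3* (0.42), *Sgpl1* (0.38), *Fabp5* (0.38), *Diras2* (0.33), *Pithd1* (0.30), *Snhg11* (0.27), *Fxyd2* (0.26) and *Pax1* (0.26). The summed level weighs *Ctsl* most, at 1851 of 4249 CPM in KO1134, 2247 of 5143 in KO1308 and 2086 of 4612 in WT. Members at low levels, such as *Psmb11* and *Foxn1*, count for little in this ranking. *Cstb* encodes cystatin B, an inhibitor of cathepsins such as the product of *Ctsl*. It was at 0.815 and 0.942 times WT in KO1134 and KO1308, and its cortex core level was 1.47, 1.09 and 1.21 times its medulla core level in KO1134, KO1308 and WT. *Krt18* and *Pax1* are on the epithelial list above. *Pithd1* had the steepest cortex gradient of the 10, at 1.86, 1.42 and 1.72 times, much like *Psmb11*. *Sgpl1* and *Krt18* lie next to members: *Sgpl1* lies 24.3 kb from *Tbata* and *Krt18* lies 23.7 kb from *Krt8*, on the opposite strand in each case and without overlap. After the B cell-rich group was left out, 9 of the 10 were still among the first 10, and *Lamp2* (0.25) took the place of *Pax1*.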

How the data were processed

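Spatial transcriptomes of 3 thymus sections, each from 1 mouse, were analysed from the UMI counts per gene and barcoded spot that the authors deposited after alignment with STAR and counting with BSTMatrix (genome build GRCm38, per the submitters' processing notes). The counts are raw and sections were not pooled. Spots with UMIs numbered 333982 in KO1134, 833765 in KO1308 and 817308 in WT, with 31237062, 21089885 and 41581477 UMIs in total. Groups were taken from the labels. Members and gene lists were chosen with earlier results of these data known.

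UMIs were summed in bins of 27 µm, over areas and over windows with Python 3.11.15, numpy 2.4.6, scipy 1.17.1 and pandas 2.3.3, and plotted with matplotlib 3.10.9. Intervals were exact (95%, counting error only), and a count of 0 UMIs was given the limit of 3 UMIs. Ratios over all genes used those with at least 50 UMIs in the sections compared, and a gene was counted as changed at 1.5 times or 1/1.5. No test between genotypes was run, since there was 1 WT section. The sums and intervals were tested on simulated data. For the self-correlation, alternate rows of spots took the place of the planned odd and even columns. The genes named were the 9 members, the 10 genes most like them, fixed lists of cell type markers, and the receptors, proteasome subunits and cathepsins beside the members. A gene of the epithelial list is not reported here. *Trp53* served as the check of the labels. Gene positions are those of GENCODE M21, which held 99.79% of the gene identifiers. A bin can hold several cells, and no cell types were assigned and no doublets called.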

Additional observations from a re-analysis of the deposited data

Results flagged for a closer look

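*Tbata* differed in direction between genotypes at the rim of the cortex. Within the cortex zone without the B cell-rich group, bins within 100 µm of the tissue edge were set beside those over 200 µm inside. The edge over inside ratio of *Tbata* was 0.942 [0.893, 0.993] in KO1134 and 0.91 [0.838, 0.988] in KO1308, both below 1, and 1.16 [1.12, 1.2] in WT. The difference was not tested, because there was 1 WT section. *Ccl25* had 1.1, 0.919 and 1.19 in the same sections.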

How the results depend on the processing

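No paired analysis was possible because each section came from a different mouse, and replicate numbers do not pair a KO mouse with the WT mouse. No test between KO and WT was run. The number of members at 1.5 times WT or more in both KO sections was 1 (*Foxn1*) and the number at 1/1.5 or less was 0 under each alternative of bin width (20 and 50 µm), gene minimum (200 and 100), area and CPM scaling. Set against WT alone, KO1308 had 3 such members and KO1134 had 2, so the count was 2 to 3 with 1 KO section left out. The mean of the KO medians (1.16) ranged from 1.08 over all tissue to 1.31 without bins like lymph node, and from 1.01 to 1.31 with 1 KO section left out. The median correlation (0.404) ranged from 0.295 in thinned windows to 0.487 with bins of 50 µm, and from 0.288 to 0.492 with 1 KO section left out. 

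The number of members at least 1.5 times higher in the cortex zone depended on how zones were drawn. In KO1134, where it was 1, it was 2 with bins of 20 µm, with windows of 5 × 5 bins and without the B cell-rich group, 3 where zones needed 2 times the relative share, and 0 with bins of 50 µm, with windows of 9 × 9 bins, with the area set from 6 genes and with medulla genes less *Ccl21a* and *Ccl19*. Under that last setting *Prss16* reversed in KO1134, with a cortex over medulla ratio of 0.964, and the cause was not tested. Between cores the number was 5 in KO1134 and 3 in WT, and without *Ccl21a* and *Ccl19* it was 4 and 4. In KO1308 it was 0 under all of these settings. The cores, the thinning and the area without the B cell-rich group were chosen after the data were seen. Over all settings the ratio of *Foxn1* to WT was 1.59 to 2.09 in KO1134 and 2.92 to 3.57 in KO1308, that of *Cxcl12* was 1.51 to 1.66 and 1.23 to 1.36, and that of *Krt8* was 1.17 to 1.48 and 1.38 to 1.6. *Ccl25*, at 0.777 to 1.01, and *Tbata*, at 0.854 to 1.14, crossed 1 in KO1134, as did *Prss16*, *Ly75* and *Ctsl*, and *Ctsl* also crossed 1 in KO1308. Depth limits *Foxn1* most, with 320 to 408 UMIs per thymus area. Counting intervals leave out the spread between mice, which 1 WT and 2 KO sections cannot give.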

Other observations

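The remaining marker lists describe which other cells shared the thymus area with the epithelium, here without the B cell-rich group and in the order KO1134, KO1308 and WT. Dendritic cell genes, 6 in all, summed to 168, 97.5 and 63.9 CPM. Endothelial genes, 5 in all, summed to 116, 161 and 127 CPM, and 4 of the 5 were at 1.5 times WT or more in both KO sections, with median ratios of 2.01 and 2.48, while *Pecam1* was at 0.662 and 0.986 times WT. The adipocyte genes, 5 in all, summed to 571, 771 and 136 CPM, with all 5 at least 1.5 times WT in both KO sections, as 21.0% of all genes were. B cell genes, 3 in all, summed to 84.5, 77.3 and 38.5 CPM, above WT even away from the B cell-rich group. *Pdgfrb*, a receptor of pericytes and fibroblasts, was at 99.1, 16.0 and 5.57 CPM that is 17.8 times WT in KO1134, where the fibroblast list as a whole had a median ratio of 2.47. Among the genes most like the members in pattern, *Snhg11* had ratios to WT of 1.42 and 2.37 and *Crip3* of 1.04 and 1.79 in KO1134 and KO1308, over the whole thymus area. No gene of these lists was at 0 in any section.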
